A study of Mus musculus with 6 samples.

Results

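Expression of 8 enzymes of cholesterol synthesis, *Hmgcs1*, *Mvd*, *Idi1*, *Fdps*, *Fdft1*, *Sqle*, *Lss* and *Cyp51*, was examined in inguinal white adipose tissue (iWAT, the subcutaneous fat of the groin) of *Hlx* transgenic mice. The enzymes were chosen by name for their place in the pathway, with earlier results of these data known. They were matched to the deposited table by gene symbol, and they make up 8 of its 19445 gene loci. All 8 had a mean above 1 FPKM in both genotypes. FPKM is a read density divided by transcript length and by the mapped reads of the library, and as a level per length it lets levels of different genes be set side by side. RNA-Seq was done on 3 transgenic (TG) and 3 littermate wild-type (WT) mice, 12 weeks old and labelled as male, with 1 library per mouse. The transgene is the full-length *Hlx* cDNA, which encodes a homeobox transcription factor, under the *aP2* (*Fabp4*) promoter, which is active in adipocytes. The founders came from C57BL/6 and SJL hybrid embryos and the line was backcrossed to C57BL/6. No mouse received a drug. The tissue was the whole fat depot, so a lower level can mean fewer cells of a type or less RNA per cell, and these cannot be told apart.

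Cells build cholesterol from acetyl-CoA in a long chain of reactions. The first part makes mevalonate and turns it into small isoprenoid units, which are joined to farnesyl pyrophosphate, and the second part joins farnesyl pyrophosphate to squalene and closes it into the sterol rings. The transcription factor SREBP is known to switch on most genes of the chain together when sterols in the membrane run low. Fat tissue stores much cholesterol in its lipid droplets, most of it taken up from the blood.

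One enzyme, *Lss*, rose in transgenic iWAT, by 1.53-fold, and the call was lost when any of 3 mice was left out. None of the other 7 passed the test in either direction. Among all 11692 loci tested, 11.6% were called higher and 7.03% lower, so 1 call in 8 enzymes was near the share called higher. The enzyme with the next highest ratio was *Fdft1*, at 1.44-fold, and the lowest ratio was that of *Cyp51*, at 0.926. The most uniform feature of the enzymes was found within the wild-type group, where replicate 3 had the lowest level of all 6 mice for 8 of 8 enzymes. The values are therefore given with and without this mouse.

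The FPKM values of a mouse summed to between 466059 and 542096 over all loci, with WT replicate 3 at the lower end. Over the tested loci, its median log2 difference from the other 2 controls was -0.004. Only the relative depth could be read from the steps between values under 0.3 FPKM, where 12.3% to 15.2% of the values lay on the step, and it ranged from 0.690 to 1.41 with wild-type replicate 3 set to 1. *Hlx* stood at 110, 79.6 and 99.5 FPKM in TG 1, 2 and 3 and at 6.88, 7.35 and 8.14 FPKM in WT 1, 2 and 3, each transgenic mouse far above each control. The labelled sex went against the data: *Xist*, an RNA of female cells, was at 20.2 to 33.6 FPKM in the 6 libraries, and 28 of 28 Y chromosome loci had a value of 0 in each. As both genotypes had the same pattern, it does not separate them.

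The sequence just before the start of transcription is shown for 3 of the enzymes: *Hmgcs1*, the one with the highest level, *Lss*, the one that rose, and *Mvd*, whose genotype difference was the nearest to 0. Of the 8 enzymes, 5 had an entry in the RefSeq promoter table (*Hmgcs1*, *Mvd*, *Idi1*, *Lss* and *Cyp51*), and *Fdps*, *Fdft1* and *Sqle* had none. The 250 bases before the start are printed 5′ to 3′ along the gene's strand, from the GRCm38.p6 build, which has the mm10 chromosomes. They lie at chr13:119690101-119690350 (plus strand) for *Hmgcs1*, chr10:76531355-76531604 (plus strand) for *Lss* and chr8:122443423-122443672 (minus strand) for *Mvd*. Capitals mark matches, on either strand, to a sterol regulatory element spelled TCACNCCAC, to the CCAAT box known to bind NF-Y, and to the GGGCGG box known to bind Sp1.
Hmgcs1: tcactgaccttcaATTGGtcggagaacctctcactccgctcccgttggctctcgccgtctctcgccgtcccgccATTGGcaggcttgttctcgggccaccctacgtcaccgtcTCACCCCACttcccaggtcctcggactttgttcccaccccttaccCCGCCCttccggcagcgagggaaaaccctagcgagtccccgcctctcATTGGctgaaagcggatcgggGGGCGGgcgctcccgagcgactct
Lss: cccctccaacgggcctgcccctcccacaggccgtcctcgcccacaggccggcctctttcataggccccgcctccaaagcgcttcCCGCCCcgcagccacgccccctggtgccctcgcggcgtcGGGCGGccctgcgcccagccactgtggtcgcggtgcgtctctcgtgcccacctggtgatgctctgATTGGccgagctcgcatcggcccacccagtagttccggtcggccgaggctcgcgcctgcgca
Mvd: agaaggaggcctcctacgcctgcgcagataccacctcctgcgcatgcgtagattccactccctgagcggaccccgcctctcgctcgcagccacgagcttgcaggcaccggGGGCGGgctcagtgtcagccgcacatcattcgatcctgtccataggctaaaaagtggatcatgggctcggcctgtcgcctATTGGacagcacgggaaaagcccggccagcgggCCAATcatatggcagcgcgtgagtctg

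*Hmgcs1* held the sterol element as TCACCCCAC, with its first base 137 bases before the start, and it was the only one of the 5 matched enzymes with these letters in the window. The window searched ran from 250 bases before to 50 bases after the start, and 1.24% of all 32851 promoters in the table held this motif. CCAAT was in 5 of 5 windows, against 37.4% of all promoters, and GGGCGG was in 5 of 5, against 35.7%. In *Lss* the CCAAT box lay 62 bases before the start and the GGGCGG boxes 166 and 127 bases before it. *Mvd* had CCAAT 60 and 27 bases before the start and GGGCGG 140 bases before it. *Lss* and *Mvd* share the same kinds of match, and a link between matches and genotype differences was not tested. Other spellings of the sterol element were not searched, so a window without this spelling was not shown to lack the element. The matches describe letters, and binding was not measured here.

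The levels of the enzymes spanned 34.8-fold. *Hmgcs1* was the highest in each of the 6 mice and made up 45.5% of the summed mean FPKM of the 8 enzymes, and *Idi1* was the lowest in each mouse, with 1.31%. *Fdft1* (14.6%) and *Lss* (10.9%) came next. *Fdft1* was above *Lss* in all 3 transgenic mice with no overlap, while in wild-type mice the ranges of the pair overlapped and *Fdft1* was below *Lss* in WT 3. *Mvd* (7.77%), *Cyp51* (7.24%), *Fdps* (6.43%) and *Sqle* (6.30%) followed, and the ranges of these 4 enzymes overlapped each other in both genotypes. Within a mouse, *Mvd* and *Cyp51* were each above *Sqle* in 6 of 6 mice, *Mvd* was above *Cyp51* in 5 of 6, both were above *Fdps* in 5 of 6, and *Fdps* was above *Sqle* in 3 of 6.

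**Figure D1:**
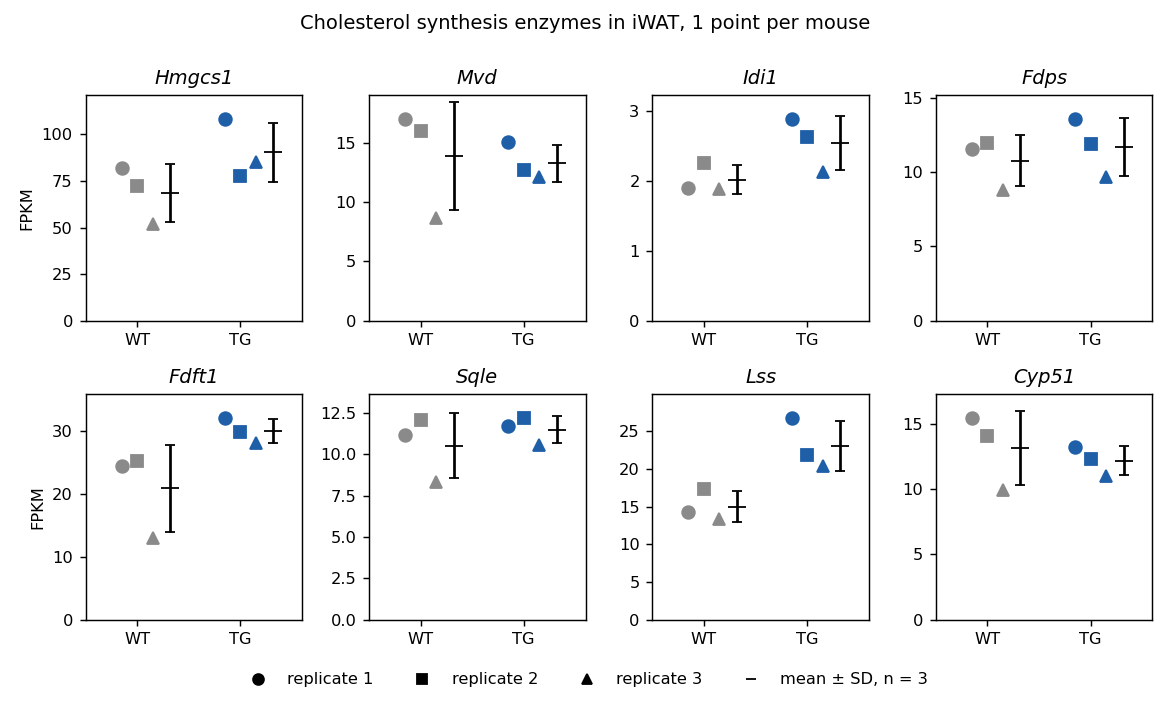
Level of each enzyme in FPKM (y axis, from 0, with its own scale per panel) in WT (grey) and TG (blue) iWAT. Each point is 1 mouse, its shape gives the replicate number, and the bar beside the points is the mean with the SD of 3 mice. Only *Fdft1* and *Lss* have all blue points above all grey points, and the grey triangle, WT replicate 3, is the lowest point of every panel.

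Of the 8 enzymes, 4 act on the way to farnesyl pyrophosphate. *Hmgcs1* is the cytosolic HMG-CoA synthase, which condenses acetoacetyl-CoA with acetyl-CoA at the start of the mevalonate route. It had 108, 77.9 and 84.9 FPKM in TG 1, 2 and 3 and 82.0, 72.3 and 51.7 FPKM in WT 1, 2 and 3. The genotypes overlapped, with TG 2 below WT 1. The means were 90.3 ± 15.8 and 68.7 ± 15.5 FPKM (SD, n = 3 mice each), and the log2 fold change of FPKM + 1 was 0.40, with a 95% interval from -0.06 to 0.86 and a limma adjusted p of 0.182. Without wild-type replicate 3, the log2 fold change was 0.21 (limma adjusted p = 0.427) and the ratio of mean FPKM went from 1.32 to 1.17. *Mvd* decarboxylates mevalonate pyrophosphate to isopentenyl pyrophosphate. Its levels were 15.0, 12.7 and 12.1 FPKM in TG and 17.0, 16.0 and 8.68 FPKM in WT. The transgenic values thus fell between the 2 high and the 1 low wild-type mouse, and no direction could be read from the log2 fold change of -0.02 (95% interval -0.57 to 0.54, limma adjusted p = 0.967). Without wild-type replicate 3, its log2 fold change was -0.30 (limma adjusted p = 0.154).

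*Idi1* interconverts isopentenyl and dimethylallyl pyrophosphate. At 2.88, 2.63 and 2.13 FPKM in TG and 1.90, 2.26 and 1.89 FPKM in WT it was the lowest of the enzymes, and of the transgenic mice only TG 3 lay within the wild-type range. Its log2 fold change was 0.23 (95% interval -0.06 to 0.51, limma adjusted p = 0.216), on a scale that understates changes at such low levels; the ratio of mean FPKM was 1.26. Without wild-type replicate 3 the log2 fold change was 0.20 (limma adjusted p = 0.407). *Fdps* joins these units into farnesyl pyrophosphate, the branch point to sterols, ubiquinone, dolichol and lipid anchors of proteins. It had 13.5, 11.9 and 9.64 FPKM in TG and 11.6, 11.9 and 8.81 FPKM in WT, with broad overlap. The log2 fold change was 0.11 (95% interval -0.25 to 0.47, limma adjusted p = 0.636) and became -0.02 without wild-type replicate 3 (limma adjusted p = 0.949).

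The other 4 enzymes carry farnesyl pyrophosphate into sterols. *Fdft1* encodes squalene synthase, the first step committed to sterols. It had 32.0, 29.8 and 28.2 FPKM in TG and 24.4, 25.3 and 13.0 FPKM in WT, so that each transgenic mouse was above each control. The means were 30.0 ± 1.95 and 20.9 ± 6.87 FPKM (SD, n = 3 mice each), and the log2 fold change was 0.56, with a 95% interval from -0.00 to 1.11 and a limma adjusted p of 0.139. Leaving out wild-type replicate 3 brought the ratio of mean FPKM from 1.44 to 1.21 and the log2 fold change to 0.26 (limma adjusted p = 0.134), still with no overlap between the genotypes. *Sqle* is squalene epoxidase, which adds the oxygen from which the rings are closed. Its values of 11.7, 12.2 and 10.6 FPKM in TG and 11.2, 12.1 and 8.33 FPKM in WT overlapped, and the log2 fold change was 0.13 (95% interval -0.19 to 0.45, limma adjusted p = 0.523), or -0.02 without wild-type replicate 3 (limma adjusted p = 0.928).

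*Lss* encodes lanosterol synthase, which folds oxidosqualene into lanosterol, the first sterol of the chain. Its level was 26.7, 21.9 and 20.4 FPKM in TG and 14.3, 17.3 and 13.4 FPKM in WT, and the lowest transgenic mouse stood above the highest control. The means were 23.0 ± 3.31 and 15.0 ± 2.03 FPKM (SD, n = 3 mice each). The log2 fold change was 0.59 (standard error 0.13, 95% interval 0.27 to 0.90, limma adjusted p = 0.0247), and the exact two-sided permutation test gave p = 0.1, the smallest p that 3 mice against 3 can give. Without TG replicate 1, WT replicate 1 or WT replicate 3 the limma adjusted p was 0.0567, 0.0703 and 0.0835, while the log2 fold change stayed between 0.48 and 0.69 whichever mouse was left out. *Cyp51* encodes the demethylase that acts on lanosterol, directly after *Lss*. It had 13.2, 12.3 and 11.0 FPKM in TG and 15.4, 14.1 and 9.92 FPKM in WT, again with the transgenic mice between 2 high and 1 low control. The log2 fold change was -0.08 (95% interval -0.46 to 0.29, limma adjusted p = 0.729), and it was -0.26 without wild-type replicate 3 (limma adjusted p = 0.177).

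**Figure D2:**
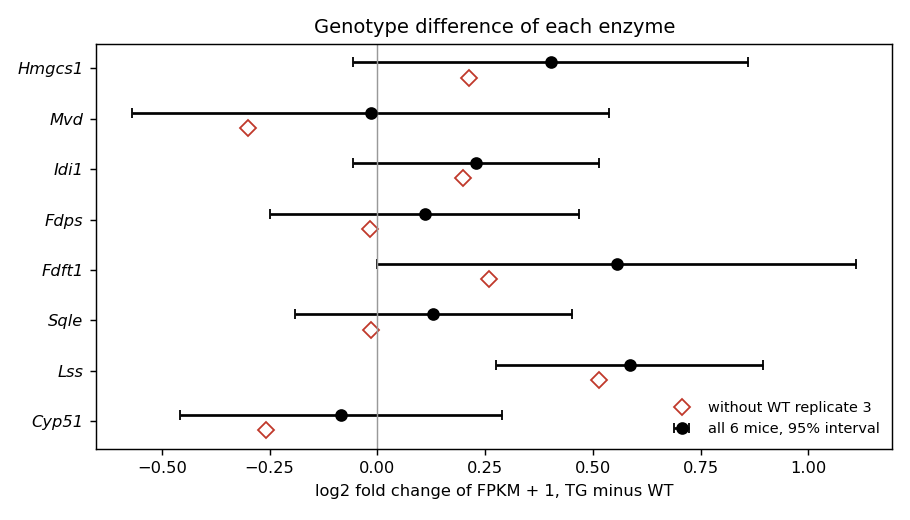
Genotype difference of each enzyme as log2 fold change of FPKM + 1 (x axis, TG minus WT), in the order of the pathway. Black points with bars are the limma estimate and its 95% interval over 6 mice, and open red diamonds are the estimate without WT replicate 3. The interval of *Lss* alone lies fully above 0, and the diamonds lie to the left of the black points for all 8 enzymes. This shift to the left was fixed in advance, because WT replicate 3 was the lowest control for each enzyme.

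Of the 8 enzymes, 1 was called higher, or 12.5%, beside 11.6% of the 11692 loci tested, and 0 were called lower, beside 7.03%. At an unadjusted limma p under 0.05 the counts were also 1 higher and 0 lower. Every transgenic mouse was above every control for 2 enzymes (*Fdft1* and *Lss*), or 25%, where 22.8% of all tested loci had that pattern, and 0 had the opposite one, which 20.1% of all tested loci had. The shares of enzymes called higher and of those with all transgenic mice above were near those of the table as a whole. The log2 fold change was positive for 6 of 8 enzymes with a median of 0.18, against a median of -0.01 over all tested loci. Without wild-type replicate 3, it was positive for 4 and negative for 4, the median was 0.09, and no enzyme was called. Leaving out this mouse, the lowest control for each enzyme, had to lower every fold change. The kit does not keep the strand of a read, and the loci of *Fdft1* (chr14:63122461-63177793) and *Sqle* (chr15:59315042-59601684) overlap those of *Ctsb* and *Nsmce2*, so reads of these neighbours may have been shared. The locus of *Lss* (chr10:76531599-76562226) overlaps no other in the table.

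The summed FPKM of the 8 enzymes was 223, 181 and 179 in TG 1, 2 and 3 and 178, 171 and 116 in WT 1, 2 and 3. WT 1 and 2 were thus close to TG 2 and 3, while TG 1 stood above and WT 3 below. The means were 194 ± 24.9 FPKM in TG and 155 ± 34.1 FPKM in WT (SD, n = 3 mice each), and 174 FPKM over the other 2 wild-type mice. Relative to those 2 mice, WT 3 differed by a median log2 of -0.48 over the 8 enzymes, against -0.004 over all tested loci, of which 35.7% were lower in WT 3 than in both others. TG 1 was the highest transgenic mouse for 7 of 8 enzymes and TG 3 the lowest for 7 of 8, with median log2 differences of 0.23 and -0.18 from the other mice of their genotype. Within each genotype, most enzymes were thus high or low in the same mice. The coefficient of variation was smaller in TG than in WT for 5 of 8 enzymes, the widest contrast being *Fdft1* with 6.50% in TG and 32.9% in WT.

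**Figure D3:**
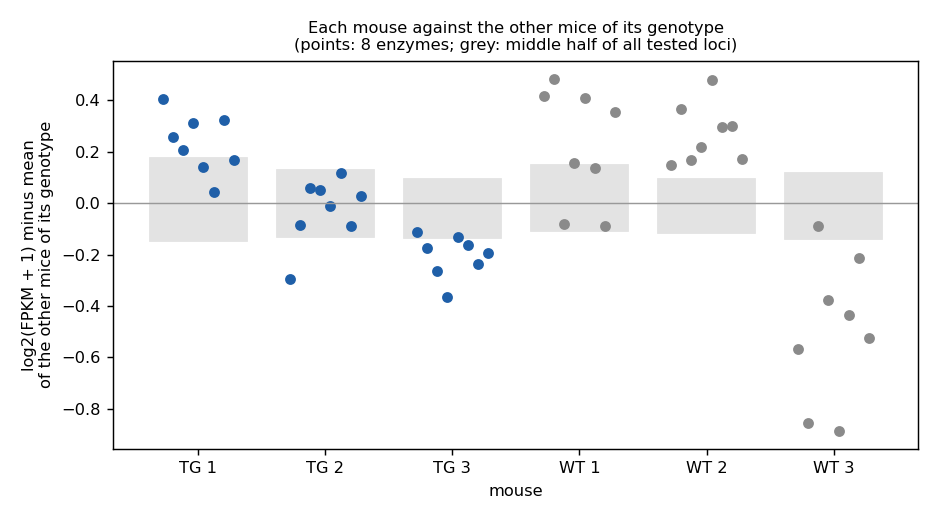
Each mouse against the other 2 of its genotype, as the difference in log2(FPKM + 1) (y axis). Points are the 8 enzymes in pathway order from left to right, and the grey box spans the quartiles of all 11692 tested loci. All 8 points of WT 3 and all 8 of TG 3 lie below 0 and all 8 of TG 1 above, while every grey box spans 0.

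Marker genes of the cells in the depot were compared with this pattern. Their counts of calls stand beside 11.6% called higher and 7.03% called lower among all tested loci. The summed level of 7 adipocyte markers was 28295 to 33640 FPKM in TG and 24005 to 29725 FPKM in WT, with 1 marker, *Adipoq*, called lower in TG. *Fabp4*, whose promoter also drives the transgene, made up 79.2% to 87.3% of each sum. The other 6 adipocyte markers summed to 3734 to 4277 FPKM in TG and 4708 to 6186 FPKM in WT. Without *Fabp4* the sum of each transgenic mouse was thus below that of each control, with WT 3 the lowest control but not the lowest mouse. Of these 6 markers, only *Adipoq* did not overlap between the genotypes, at 1279 to 1457 FPKM in TG and 2084 to 2911 FPKM in WT. The levels of *Plin1*, *Cidec*, *Pparg*, *Lipe* and *Lep* each overlapped. In WT 3, 5 of the 7 adipocyte markers were below both other controls, with a median log2 difference of -0.27. The 6 brown adipocyte markers summed to 5003 to 6397 FPKM in TG and 553 to 969 FPKM in WT, and 5 of 6 rose. Macrophage markers, at 360 to 513 FPKM in TG and 756 to 958 FPKM in WT, were lower for 4 of 8 and highest in WT 3. The lymphocyte sums were 183 to 269 FPKM in TG and 261 to 381 FPKM in WT, with 1 of 7 markers lower and WT 3 again the highest. Epithelial markers (143 to 298 FPKM in TG, 239 to 338 FPKM in WT, 0 of 11 called) and skeletal muscle markers (96.9 to 685 FPKM in TG, 7.08 to 143 FPKM in WT, 0 of 7 called) varied widely between mice of 1 genotype. In WT 3, 9 of the 11 epithelial markers were below both other controls, with a median log2 difference of -0.52, close to that of the 8 enzymes in this mouse. In TG 1, TG 2, TG 3, WT 1 and WT 2 the epithelial median was -0.96, -0.12, 0.97, 0.53 and -0.02. That of the 8 enzymes in the same mice was 0.23, 0.01, -0.18, 0.26 and 0.26. For the adipocyte markers it was 0.22, -0.02, -0.21, 0.09 and -0.01. Endothelial markers lay at 137 to 142 FPKM in TG and 128 to 134 FPKM in WT, with 1 of 6 higher. The part of these cell types in the levels of *Lss* or of the other enzymes was not tested.

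The makeup of the enzyme pool was described by the share of each enzyme in the 8-enzyme sum of the same mouse. This takes out only a factor common to all 8, and the share of 1 enzyme falls where the others rise. *Hmgcs1* held 48.4%, 43.0% and 47.5% in TG and 46.1%, 42.2% and 44.7% in WT, which overlapped. *Cyp51* held 5.90%, 6.78% and 6.15% in TG and 8.67%, 8.21% and 8.57% in WT, and *Mvd* held 6.72%, 6.98% and 6.76% in TG and 9.55%, 9.35% and 7.50% in WT. The shares of both were lower in each transgenic mouse than in each control, although the FPKM levels of both overlapped. Their ratios of mean FPKM were 0.926 for *Cyp51* and 0.955 for *Mvd*, while *Hmgcs1*, *Fdft1* and *Lss* in the same sum had 1.32, 1.44 and 1.53. The lower shares thus cannot be read as lower levels. The share of *Lss* was 12.0%, 12.1% and 11.4% in TG and 8.03%, 10.1% and 11.6% in WT, so here WT 3 was within the transgenic range. *Lss* and *Cyp51* catalyse consecutive steps, and the ratio of their FPKM was 2.03, 1.78 and 1.85 in TG and 0.926, 1.23 and 1.35 in WT, with no overlap and with WT 3 the highest control. This ratio was chosen after the values were seen and carries no test.

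**Figure D4:**
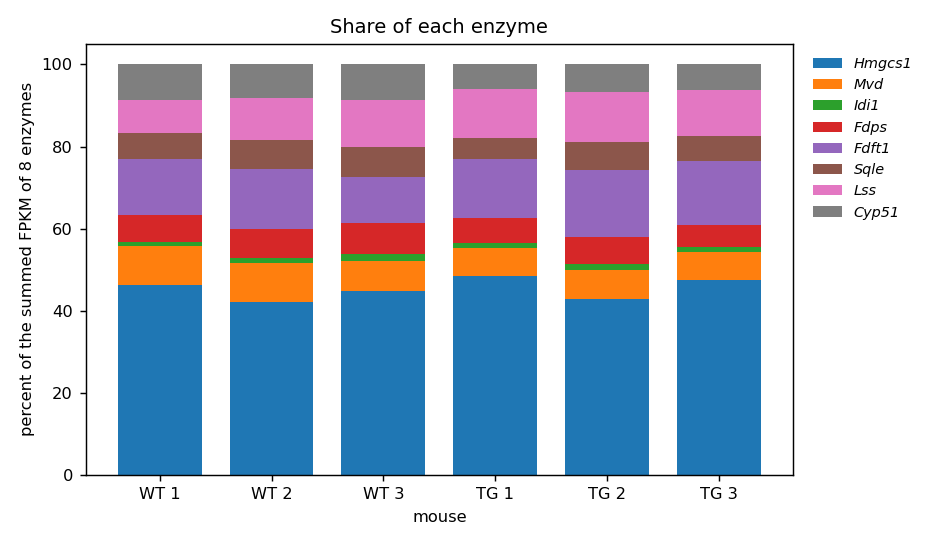
Share of each enzyme in the summed FPKM of the 8 enzymes (y axis, percent) in each mouse (x axis). *Hmgcs1* takes the largest block in each mouse, and the blocks of *Mvd* (orange) and *Cyp51* (grey) are narrower in each TG mouse than in each WT mouse.

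Other genes around the pathway were taken from lists put together by function. Their counts of calls stand beside 11.6% called higher and 7.03% called lower among all tested loci. Of 11 other enzymes of cholesterol synthesis, 3 rose and 0 fell, with a median log2 fold change of 0.04. *Dhcr7*, which makes cholesterol from its direct precursor, had 30.5 ± 4.96 FPKM in TG and 17.9 ± 2.24 FPKM in WT (SD, n = 3 mice each), and each transgenic mouse was above each control. Its log2 fold change was 0.73 (limma adjusted p = 0.0138). *Acat2*, a thiolase that supplies acetoacetyl-CoA to *Hmgcs1*, had a log2 fold change of 0.90 (limma adjusted p = 0.0125). Both stayed under 0.05 in each of 14 alternative settings. *Pmvk*, a kinase of the mevalonate route, had a log2 fold change of 0.63 (limma adjusted p = 0.0423) and lost the call in 9 of the 14 settings, with each mouse but TG 3 among those whose removal did so (adjusted p up to 0.130 over the settings). The 4 highest enzymes of the list without a call, *Sc5d*, *Nsdhl*, *Ebp* and *Mvk*, had log2 fold changes between -0.28 and 0.14. *Ebp* had 21.7, 23.6 and 20.9 FPKM in TG and 32.1, 24.4 and 24.9 FPKM in WT. Each transgenic mouse was thus below each control for *Ebp* (log2 fold change -0.28, limma adjusted p = 0.143). In WT 3, 8 of the 11 were below both other controls, and without that mouse 2 were called and the median was -0.16.

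Of 7 genes of SREBP control, 0 were called, and 0 had an unadjusted limma p under 0.05 in either direction. *Srebf2*, the SREBP gene tied most closely to cholesterol synthesis, had 32.0, 36.3 and 33.5 FPKM in TG and 35.2, 35.1 and 36.3 FPKM in WT, and its log2 fold change was -0.07 (limma adjusted p = 0.565). WT 3, lowest for the 8 enzymes, was not low for *Srebf2* RNA, and SREBP protein was not measured here. *Insig1*, a sterol-regulated protein that holds SREBP back in the endoplasmic reticulum, had 95.1, 83.6 and 95.2 FPKM in TG and 70.3, 102 and 38.2 FPKM in WT. WT 3 was again by far the lowest for this gene, and the log2 fold change of 0.48 did not pass the test (limma adjusted p = 0.314). *Srebf1*, the SREBP gene tied more to fatty acids, had a log2 fold change of 0.03 (limma adjusted p = 0.939), at a locus that overlaps *Rai1*. Its levels were 191, 113 and 102 FPKM in TG and 141, 149 and 98.6 FPKM in WT, with WT 3 the lowest mouse.

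Among 9 genes of the branches that lead from farnesyl pyrophosphate to products other than sterols, 4 rose and 0 fell. Over all tested loci, 11.6% rose and 7.03% fell. The log2 fold change was positive for 9 of 9, with a median of 0.30, where it was positive for 5663 of all 11692 tested loci. *Pdss1* and *Pdss2*, the subunits that build the side chain of ubiquinone, a carrier of the respiratory chain, had log2 fold changes of 0.67 and 0.71 (limma adjusted p = 0.00459 and 0.00292). *Pdss2* had 10.5, 9.62 and 9.88 FPKM in TG and 6.37, 5.50 and 5.37 FPKM in WT, with a gap between the genotypes wider than either range. The locus of *Pdss1* overlaps that of *Abi1*, so reads may have been shared there. The farnesyltransferase subunits *Fnta* and *Fntb* had log2 fold changes of 0.36 and 0.31 (limma adjusted p = 0.0408 and 0.0488), and lost the call in 5 and 8 of 14 settings, with adjusted p up to 0.116 for *Fnta* and 0.142 for *Fntb*. Removing TG 1, TG 3, WT 2 or WT 3 ended both calls, removing TG 2 that of *Fnta*, and removing WT 1 that of *Fntb*. The symbol *Fnta* had 2 loci that overlap, of which the higher was used, so reads may have been shared between them. *Fdps*, which supplies these branches, was not called.

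Of 10 genes of sterol uptake and transport inside the cell, 4 rose and 1 fell, with a median log2 fold change of 0.08. The shares over all tested loci were 11.6% and 7.03%. *Lipa*, the lysosomal acid lipase that frees cholesterol from its esters, had 67.6, 56.4 and 63.5 FPKM in TG and 32.5, 29.3 and 34.1 FPKM in WT, a log2 fold change of 0.94 (limma adjusted p = 0.00171). *Npc1* and *Npc2*, which pass cholesterol out of the lysosome, had log2 fold changes of 0.58 and 0.55 (limma adjusted p = 0.0230 and 0.0464), and lost the call in 4 and 9 of 14 settings. For *Npc1* these were the removals of TG 1, TG 3, WT 1 or WT 2 (adjusted p up to 0.0792), and for *Npc2* the removal of any 1 mouse was among them (adjusted p up to 0.174 over the settings). The oxysterol-binding protein gene *Osbpl1a* had a log2 fold change of 0.64 (limma adjusted p = 0.0154), with an adjusted p of 0.0540 without WT 2 and 0.0581 without WT 3. *Mylip*, a ubiquitin ligase that targets lipoprotein receptors, had 17.2, 14.7 and 12.8 FPKM in TG and 23.2, 23.8 and 25.2 FPKM in WT, and its log2 fold change was -0.67 (limma adjusted p = 0.00869). *Lipa* and *Mylip* kept their calls in all 14 settings, and WT 3 was not set apart from the other controls for either.

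Of 7 tested genes of sterol efflux, esters and oxysterols, 0 were called, while 1 was higher and 2 were lower at an unadjusted limma p under 0.05, and the median log2 fold change was -0.19. *Abca1* and *Abcg1*, exporters of cholesterol, had log2 fold changes of -0.19 and -0.22, and *Cyp27a1*, a mitochondrial sterol hydroxylase, had 0.47 (limma adjusted p = 0.187, 0.0816 and 0.0554). Of 10 genes of fatty acid synthesis, which shares acetyl-CoA with the cholesterol route, 4 rose and 0 fell, beside 11.6% and 7.03% of all tested loci. *Acacb* and *Elovl6* had log2 fold changes of 1.45 and 1.09 (limma adjusted p = 0.00427 and 0.00438) and kept the call in all 14 settings. *Acly*, which makes cytosolic acetyl-CoA, had 0.89 (limma adjusted p = 0.0396), and *Mlxipl*, a glucose-sensing transcription factor, had 0.71 (limma adjusted p = 0.0310), but the call was lost in 8 and 6 settings. Removing TG 3, WT 1 or WT 3 ended both calls, removing TG 1 or TG 2 that of *Acly* (adjusted p up to 0.126 over the settings), and removing WT 2 that of *Mlxipl* (up to 0.0844). *Fasn* was listed at 0 in TG 2 and *Scd1* at 0 in TG 1, TG 2 and WT 2, which cannot be read as levels in fat, and no fold change is given for either.

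**Figure D5:**
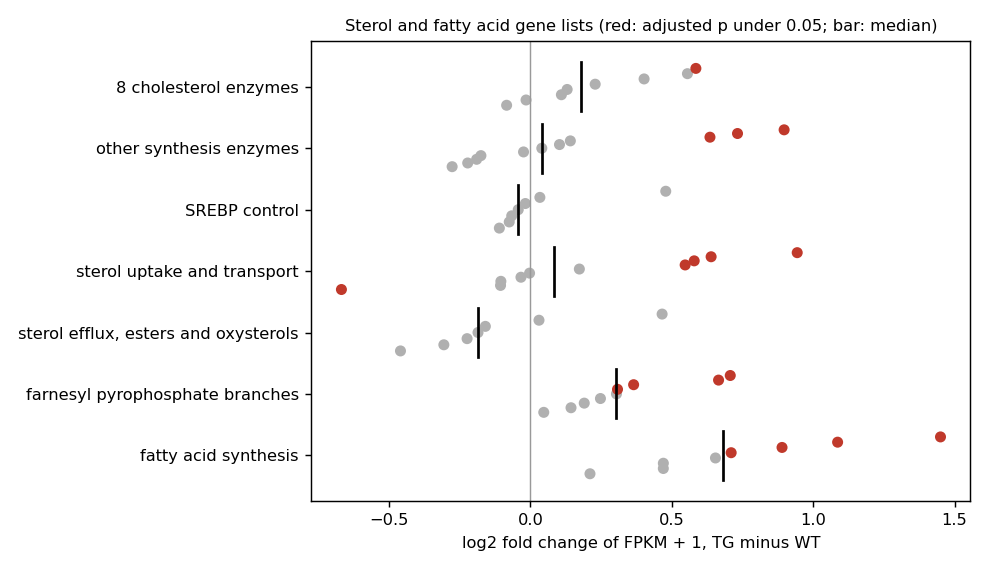
Genotype differences (x axis, log2 fold change of FPKM + 1, TG minus WT) of the 8 enzymes and of 6 lists of neighbouring pathways (y axis). Each point is 1 gene, red where the limma adjusted p was under 0.05, and the bar is the median of the points, which was 0.68 for the 8 fatty acid genes drawn; *Fasn* and *Scd1* are left out because they hold a 0. The SREBP and efflux lists have no red point, and the uptake list has red points on both sides of 0.

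The 5 loci outside the lists whose log2(FPKM + 1) followed the mean profile of the 8 enzymes most closely over the 6 mice were *Mlx*, *Trappc2*, *Rabac1*, *Mfsd3* and *Rab3d*, with Pearson r between 0.987 and 0.994. They were picked from all tested loci for this likeness, over mice that include WT 3, so r is a description only. *Mlx* had 25.7, 23.7 and 22.6 FPKM in TG and 22.9, 23.6 and 18.1 FPKM in WT, with WT 3 the lowest and TG 1 the highest mouse. None of the 5 was called between the genotypes, with limma adjusted p between 0.296 and 0.454. Among the enzymes themselves, r with their own mean profile ran from 0.705 for *Cyp51* and 0.756 for *Lss* to 0.938 for *Fdft1*. Each enzyme is part of that profile, which tends to raise its r, and WT 3 was the lowest mouse in it. These r values are therefore descriptions only.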

How the data were processed

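RNA-Seq of iWAT from 3 TG and 3 WT mice was analysed. Per the submitters' processing notes, CASAVA 1.8.2, TopHat2 2.0.9, Bowtie2 2.1.0 and Cufflinks 2.2.1 were used with mm10. Libraries were TruSeq, sequenced as single-end reads of 100 bases. The authors deposited an FPKM value per gene locus and mouse. The annotation and options are not given in the sources used here, and read counts were not used, so the absolute depth is unknown.

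Loci with a mean above 1 FPKM in at least 1 genotype were kept (11692 of 19445). The values log2(FPKM + 1) were compared between genotypes by limma (version 3.58.1, under R 4.3.3), using lmFit followed by eBayes with a mean-variance trend. The test was two-sided and without covariates, and p-values were adjusted over all loci kept by the Benjamini-Hochberg method, with calls at 0.05. This model stands in for the Cuffdiff test, which needs reads. An exact permutation test had 20 arrangements. The limma step was first tested on simulated data. The labels do not say that a shared replicate number pairs the mice, so the block is only an alternative. The alternatives were pseudocount 0.1, 2 other filters, 2 other scalings, eBayes without trend, sample weights, the replicate block and each mouse left out.

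The 8 enzymes and all lists were chosen with earlier results of these data known. All 8 enzymes are described. From the other lists, genes with an adjusted p under 0.05 and up to 4 more per list by level could be named, and the 5 loci most like the enzymes by Pearson r. Of 66 listed pathway genes, 3 did not match a symbol in the table, as did 4 of 56 markers. Where a symbol had several loci, the one with the highest mean FPKM was used. Figures were drawn with matplotlib 3.10.9 in Python 3.11.15.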

Additional observations from a re-analysis of the deposited data

How the results depend on the processing

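Over 14 alternatives, *Lss* stayed higher in TG in each and kept its call in 11, with limma adjusted p between 0.0218 and 0.0835, and the 3 losses came from leaving out TG replicate 1, WT replicate 1 or WT replicate 3. With 1 mouse left out, the count of enzymes called higher was 0 to 1. No enzyme was called lower in any setting. Over all loci, 1352 were higher and 822 lower, and with 1 mouse left out 780 to 1295 were higher and 329 to 906 lower, from fits with fewer mice. The other settings gave 1151 to 1611 higher and 638 to 1185 lower.

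The sign of 4 enzymes depended on the setting, always with a log2 fold change that did not pass the test. With 1 mouse left out, *Mvd* ranged from -0.30 to 0.15, *Fdps* from -0.02 to 0.23, *Sqle* from -0.02 to 0.23 and *Cyp51* from -0.26 to 0.03. *Mvd* was at 0.01 without TG replicate 2, 0.04 without TG replicate 3, 0.15 without WT replicate 1 and 0.11 without WT replicate 2. *Fdps* was at -0.027 with sample weights and at -0.016 without WT replicate 3. *Sqle* was at -0.016 without WT replicate 3, and *Cyp51* at 0.03 without WT replicate 1. The cause was not tested. Same-numbered mice had correlations of their deviations of 0.013, 0.034 and 0.070, and differently numbered mice had -0.186 to 0.135. With 3 mice per genotype, these values cannot tell whether the numbers pair the mice. With the replicate number as a block, 1230 loci were higher and 656 lower, and 1 enzyme, *Lss*, was called higher and 0 lower. The absolute depth is unknown, so no counting interval could be given, and the 3 mice per genotype limit the precision. The mice with the lowest relative depth were TG 1 and TG 3.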
